A study of Homo sapiens with 22 samples.

Results

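The 37 autophagy genes described here are a fixed list of the core machinery of macroautophagy and its cargo receptors, taken by symbol from an RNA-seq table of 48162 gene IDs, of which 45342 had a symbol. All 37 matched an ID, and 35 passed the filter on low counts and were tested. RNA came from Kasumi-1, a human cell line established from acute myeloid leukaemia. The cells carried 1 of 3 lentiviral constructs, namely FIP1L1 shRNA 1 (4 libraries), FIP1L1 shRNA 2 (4 libraries) or a control shRNA (4 libraries). Every group was transduced, selected with puromycin and grown in RPMI with serum, so the control also carried a lentivirus and the selection. The labels call the replicates biological without saying whether the transductions were separate, so p-values measure only the spread between these libraries. FIP1L1 is a subunit of the factor that recognises the polyadenylation signal of pre-mRNAs.

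Macroautophagy encloses cytoplasm in a double membrane, the autophagosome, which then fuses with the lysosome. A kinase complex around ULK1 starts the process, a lipid kinase complex around BECN1 and PIK3C3 marks the growing membrane with phosphatidylinositol 3-phosphate, and ATG2, ATG9 and WIPI proteins feed and tether it. A ubiquitin-like conjugation system then attaches ATG8 proteins (LC3 and GABARAP) to the membrane, where cargo receptors such as p62 hold on to the material to be degraded.

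Library totals ran from 12236937 to 20388437 counts, and the precision this depth gives covers counting error only. FIP1L1 itself averaged 15.4 ± 1.55 CPM with shRNA 1, 19.6 ± 0.788 CPM with shRNA 2 and 41.3 ± 2.27 CPM in the control (CPM, counts scaled to the TMM-adjusted library size, SD, n = 4 each). Genes of the mitochondrial chromosome took 4.86% to 7.20% of counts with shRNA 1, 8.09% to 9.25% with shRNA 2 and 7.94% to 8.51% in the control. All 7 markers of Kasumi-1 and myeloid progenitors were present, and their summed level was 7813 to 9970 CPM with shRNA 1, 10645 to 13253 CPM with shRNA 2 and 17664 to 19785 CPM in the control. Most of that sum was MPO, a granule enzyme of myeloid cells, which averaged 7212 CPM with shRNA 1, 9913 CPM with shRNA 2 and 16234 CPM in the control. CD33 averaged 63.1 CPM with shRNA 1, 183 CPM with shRNA 2 and 72.2 CPM in the control. KIT averaged 1165 CPM with shRNA 1, 1454 CPM with shRNA 2 and 1449 CPM in the control. In the same order of groups, CD34 averaged 51.8, 178 and 261 CPM and RUNX1 183, 368 and 384 CPM. RUNX1T1 averaged 74.1, 142 and 185 CPM and CD38 3.44, 1.82 and 3.06 CPM. The 5 monocyte markers summed to 17.4 to 23.2 CPM with shRNA 1, 24.1 to 38.8 CPM with shRNA 2 and 12 to 19.1 CPM in the control, with FCGR3A at 0 throughout. They did not move together. In the same order, CSF1R averaged 10.2, 11.8 and 12.3 CPM, LYZ 4.85, 6.41 and 0.639 CPM and ITGAM 6.39, 13.8 and 2.59 CPM. CD14 averaged at most 0.201 CPM in any group. The 6 epithelial and fibroblast markers summed to 40.1 to 49.1 CPM with shRNA 1, 136 to 145 CPM with shRNA 2 and 126 to 153 CPM in the control, with COL1A2 at 0. EPCAM made up most of it and averaged 42.3 CPM with shRNA 1, 138 CPM with shRNA 2 and 134 CPM in the control. The 5 erythroid and megakaryocyte markers summed to 3.82 to 8.34 CPM with shRNA 1, 9.75 to 12.2 CPM with shRNA 2 and 8.50 to 14.4 CPM in the control, with HBB, HBG1 and PF4 at 0. The 4 lymphoid markers summed to 1.38 to 2.44 CPM with shRNA 1, 2.78 to 4.77 CPM with shRNA 2 and 1.29 to 2.39 CPM in the control, with MS4A1 and NCAM1 at 0. The part of these shifts in the autophagy genes was not tested, and in bulk RNA fewer cells of a type and less RNA per cell cannot be told apart.

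With shRNA 1 all 5 cargo receptors rose (SQSTM1, NBR1, OPTN, CALCOCO2 and TAX1BP1), by 1.87-fold to 2.84-fold. With shRNA 2 OPTN rose, CALCOCO2 fell, and MAP1LC3B, ATG7 and RB1CC1 fell to 51.3%, 54.0% and 55.0% of the control level. WIPI1 and GABARAPL1 rose by 2.36-fold to 2.63-fold with each shRNA. Against the control, 20 of the 35 tested members were higher and 5 lower with shRNA 1 (edgeR quasi-likelihood F test, adjusted p below 0.05), where 57.3% of all tested genes were called, 28.6% higher and 28.7% lower. With shRNA 2, 14 were higher and 8 lower, where 50% of all tested genes were called, 24.7% higher and 25.3% lower. The median log2 fold change of the 35 members was 0.31 with shRNA 1, beside 0.02 over all genes tested, and 0.16 with shRNA 2, beside 0.00 over all genes tested. Both comparisons use the same 4 control libraries, so they are not independent. When a change of at least 1.5-fold was required in addition, 10 members were higher and 2 lower with shRNA 1, where 34.5% of all tested genes passed, 18.1% higher and 16.4% lower. With shRNA 2, 5 were higher and 3 lower, where 26.8% of all tested genes passed, 13.4% in each direction. Scaling by library size alone moved the median of all genes to 0.21 with shRNA 1 and gave 25 members higher and 2 lower, beside 39.9% and 20.4% of all tested genes. The members gained were ULK1, PIK3C3, ATG14, ATG7 and GABARAPL2, and the lower calls of ATG13, UVRAG and ATG9A were lost (adjusted p = 0.175, 0.671 and 0.905). The same scaling gave 18 higher and 6 lower with shRNA 2, beside 29.3% and 21.2% of all tested genes, with ATG13, ATG14, SQSTM1 and TAX1BP1 gained and ATG4C and ATG4D lost.

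**Figure D1:**
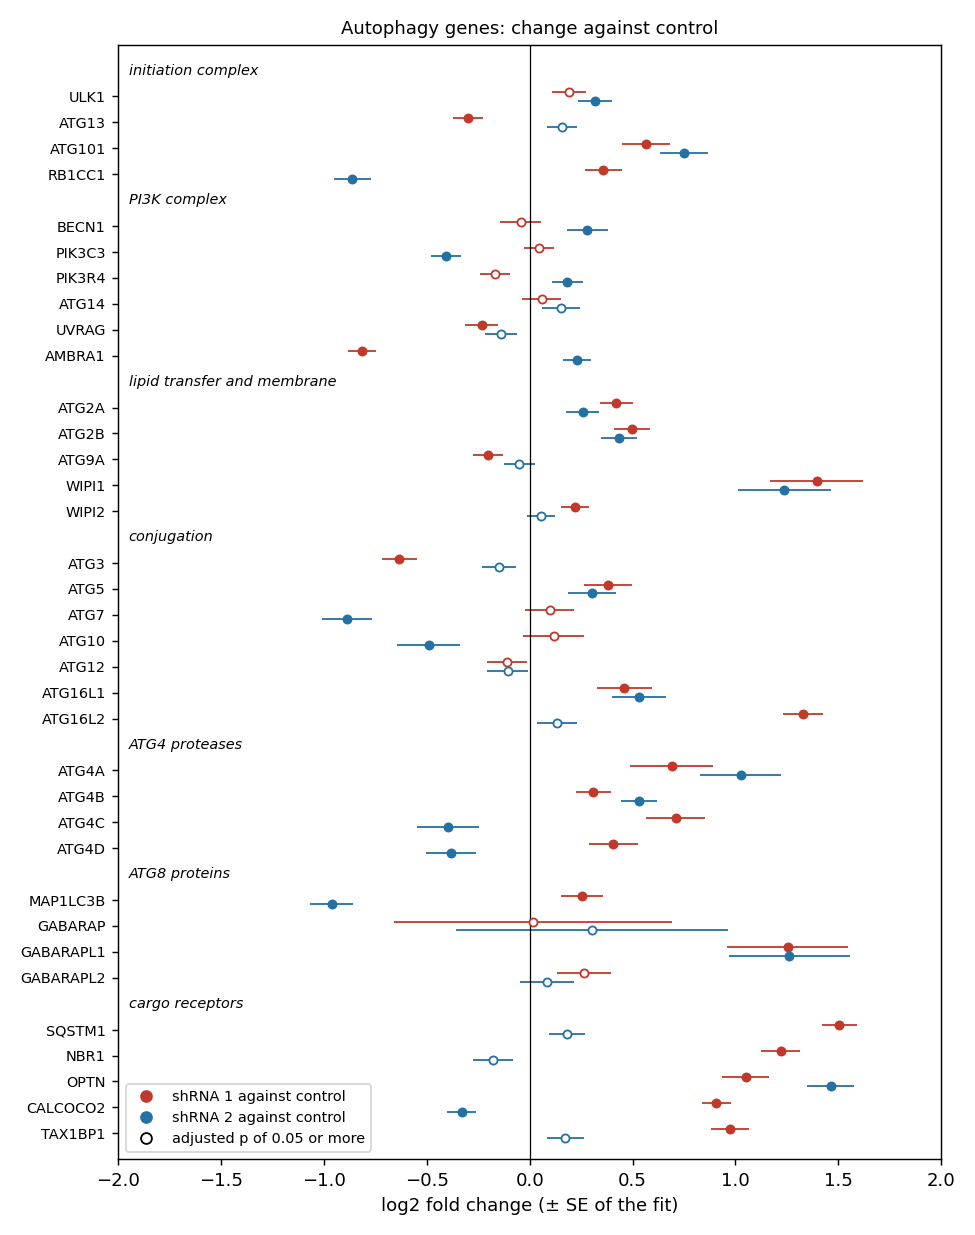
Each row is 1 of the 35 tested autophagy genes, grouped by role, and the horizontal axis is the log2 fold change against the control with an SE derived from the edgeR F value. Red points are shRNA 1 and blue points shRNA 2, filled where the adjusted p was below 0.05. The 5 cargo receptors lie between 0.91 and 1.5 with shRNA 1, while with shRNA 2 only OPTN lies above 1 among them.

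In the initiation complex, 2 members rose and 1 fell with each shRNA among the 4 tested. Counts of this and each later role stand beside 28.6% of all tested genes higher and 28.7% lower with shRNA 1. With shRNA 2 those shares were 24.7% and 25.3%. ATG101, a scaffold subunit that stabilises ATG13, had 17.1, 19.2, 21.8 and 22 CPM in shRNA 1 libraries, 20.9, 22.9, 22 and 25.1 in shRNA 2 libraries and 13.2, 12.2, 13.5 and 15 in control libraries. All libraries of both shRNAs lay above all control libraries, with changes of 0.56 ± 0.12 on the log2 scale (SE, adjusted p = 0.000232) for shRNA 1 and 0.75 ± 0.12 on the log2 scale (SE, adjusted p = 1.01e-05) for shRNA 2. RB1CC1, also called FIP200 and the large scaffold on which the ULK1 kinase assembles, had 134, 145, 112 and 111 CPM in shRNA 1 libraries, 54.5, 59.95, 46.1 and 55 in shRNA 2 libraries and 90.7, 104, 95.1 and 102 in control libraries. Its groups did not overlap: shRNA 1 libraries were the highest (log2 fold change 0.36 ± 0.09 SE, adjusted p = 0.00147) and shRNA 2 libraries the lowest (log2 fold change -0.86 ± 0.09 SE, adjusted p = 4.54e-08). ATG13, the adaptor that links ULK1 to RB1CC1, averaged 90.9 ± 9.08 CPM with shRNA 1, 125 ± 5.51 with shRNA 2 and 112 ± 5.61 in the control (SD, n = 4 each). It fell with shRNA 1 (log2 fold change -0.30 ± 0.07 SE, adjusted p = 0.00106). Its log2 change with shRNA 2 was 0.16, with an adjusted p of 0.0737, and of 0.035 without shRNA 1 replicate 1. ULK1, the kinase itself, averaged 109 ± 9.17 CPM with shRNA 1, 119 ± 7.84 with shRNA 2 and 95.4 ± 12.1 in the control (SD, n = 4 each). It rose with shRNA 2 (log2 fold change 0.32 ± 0.08 SE, adjusted p = 0.00293), and with shRNA 1 the adjusted p was 0.0539 at a log2 change of 0.19. Without control replicate 1 that p was 0.00625 and without shRNA 1 replicate 1 it was 0.0122. ULK2, the second kinase of the family, was listed at 0 counts in all 12 libraries. How fully the annotation used for counting covers this gene is not known, so the zeros are not read as absence of its mRNA.

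The lipid kinase complex that makes phosphatidylinositol 3-phosphate had no member higher and 2 of 6 lower with shRNA 1, and 3 higher and 1 lower with shRNA 2. Called were 33.3% with shRNA 1 and 66.7% with shRNA 2, beside 57.3% and 50% of all tested genes. AMBRA1, a regulator that brings BECN1 to the complex and supports ULK1, had 47.6, 47.8, 46.5 and 45.6 CPM in shRNA 1 libraries, 93.3, 90.4, 101 and 103 in shRNA 2 libraries and 85.7, 80.2, 87.7 and 76.8 in control libraries. The shRNA 1 libraries sat far below the others and varied little, and the shRNA 2 libraries all lay above the control libraries. The change was -0.82 ± 0.07 on the log2 scale (SE, adjusted p = 7.52e-10) with shRNA 1 and 0.23 ± 0.07 on the log2 scale (SE, adjusted p = 0.0073) with shRNA 2. PIK3C3, the lipid kinase VPS34, averaged 84.5 ± 7.22 CPM with shRNA 1, 61.8 ± 4.32 with shRNA 2 and 82 ± 2.42 in the control (SD, n = 4 each). It fell with shRNA 2 (log2 fold change -0.41 ± 0.07 SE, adjusted p = 7.12e-05), while with shRNA 1 its log2 change was 0.04 (adjusted p = 0.637). BECN1, the scaffold Beclin 1, averaged 31.8 ± 4.85 CPM with shRNA 1, 39.8 ± 2.06 with shRNA 2 and 32.8 ± 1.25 in the control (SD, n = 4 each) and rose with shRNA 2 (log2 fold change 0.28 ± 0.10 SE, adjusted p = 0.0209). That call was lost without control replicate 4 (adjusted p = 0.0644), shRNA 2 replicate 3 (0.0605) or shRNA 2 replicate 4 (0.0565).

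PIK3R4, the regulatory subunit VPS15, averaged 47.3 ± 4.05 CPM with shRNA 1, 60.4 ± 0.346 with shRNA 2 and 53.2 ± 2.16 in the control (SD, n = 4 each). Its increase with shRNA 2 (log2 fold change 0.18 ± 0.07 SE, adjusted p = 0.045) was just inside the threshold. The call was lost when any single control or shRNA 2 library, or shRNA 1 replicate 3, was left out, with adjusted p from 0.0534 to 0.121, and with no filter on low counts (0.0872). With shRNA 1 the adjusted p of PIK3R4 was 0.0567 at a log2 change of -0.17, and it was called lower without control replicate 1 (0.0418) or shRNA 1 replicate 1 (0.014). UVRAG, which replaces ATG14 in the complex on endosomes, averaged 48.2 ± 5.31 CPM with shRNA 1, 51.4 ± 2.43 with shRNA 2 and 56.7 ± 1.42 in the control (SD, n = 4 each). It fell with shRNA 1 (log2 fold change -0.23 ± 0.08 SE, adjusted p = 0.0158), a call lost without shRNA 1 replicate 3 (adjusted p = 0.0578). ATG14, the subunit that directs the complex to the forming autophagosome, averaged 32.4 ± 3.65 CPM with shRNA 1, 34.6 ± 0.321 with shRNA 2 and 31.1 ± 2.51 in the control (SD, n = 4 each) and was called with neither shRNA (log2 0.06 and 0.15).

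Among the lipid transfer and membrane proteins, 4 of 5 rose and 1 fell with shRNA 1, and 3 rose with shRNA 2. That is 100% called with shRNA 1 and 60% with shRNA 2, beside 57.3% and 50% of all tested genes. WIPI1, a reader of phosphatidylinositol 3-phosphate at the nascent membrane, had 9.03, 9.02, 9.68 and 10 CPM in shRNA 1 libraries, 6.94, 9.97, 7.73 and 9.21 in shRNA 2 libraries and 4.48, 4.1, 4.28 and 1.68 in control libraries. Every library of either shRNA lay above every control library, and control replicate 4 was far below the other 3 control libraries. The change was 1.39 ± 0.22 on the log2 scale (SE, adjusted p = 1.27e-05) with shRNA 1 and 1.24 ± 0.23 on the log2 scale (SE, adjusted p = 7.86e-05) with shRNA 2. Its exons overlap ARSG on the other strand, whose log2 changes were 0.39 (not called) and -0.76. WIPI2, the related reader that recruits ATG16L1, averaged 161 ± 14.4 CPM with shRNA 1, 144 ± 6.78 with shRNA 2 and 139 ± 4.45 in the control (SD, n = 4 each) and rose with shRNA 1 (log2 fold change 0.22 ± 0.07 SE, adjusted p = 0.00765). With shRNA 2 its log2 change was 0.06 (adjusted p = 0.521). The WIPI1 promoter is shown because this gene rose with both shRNAs and its promoter repeats the GC box (capitals, GGGCGG, letters bound by the SP1 family). Any part of these boxes in the rise was not tested. A GC box was present in 66.7% of the members searched, beside 42.3% of all promoters. The stretch is the 150 bases that end 18 bases before the RefSeq start, on the minus strand of GRCh38.p14 at chr17:68457514-68457663, with 7 GC boxes and 81.3% G or C.
WIPI1: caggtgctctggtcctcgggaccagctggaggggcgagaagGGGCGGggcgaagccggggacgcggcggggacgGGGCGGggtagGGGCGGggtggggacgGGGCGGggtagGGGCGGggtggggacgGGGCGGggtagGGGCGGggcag

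ATG2A and ATG2B are long proteins that carry lipid into the growing membrane. ATG2A averaged 162 ± 14.5 CPM with shRNA 1, 145 ± 5.57 with shRNA 2 and 121 ± 15.5 in the control (SD, n = 4 each), and rose with shRNA 1 (log2 fold change 0.42 ± 0.08 SE, adjusted p = 0.000103). It also rose with shRNA 2 (log2 fold change 0.26 ± 0.08 SE, adjusted p = 0.0103), and that call was lost without control replicate 4 (adjusted p = 0.0605). ATG2B averaged 57.7 ± 5.38 CPM with shRNA 1, 55.2 ± 2.26 with shRNA 2 and 41 ± 5.02 in the control (SD, n = 4 each). It rose with shRNA 1 (log2 fold change 0.50 ± 0.09 SE, adjusted p = 4.92e-05) and shRNA 2 (log2 fold change 0.43 ± 0.09 SE, adjusted p = 0.000297) with no overlap between either shRNA and the control. ATG9A, the lipid scramblase of the vesicles that seed the membrane, averaged 50.03 ± 3.99 CPM with shRNA 1, 55.7 ± 1.3 with shRNA 2 and 57.7 ± 2.25 in the control (SD, n = 4 each). It fell slightly with shRNA 1 (log2 fold change -0.20 ± 0.07 SE, adjusted p = 0.0218). That call was lost without control replicate 1 (adjusted p = 0.0502), control replicate 3 (0.0516) or shRNA 1 replicate 3 (0.0974), and in a fit of the shRNA 1 and control libraries alone (0.0629).

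The conjugation system had 3 of 7 members higher and 1 lower with shRNA 1, and 2 higher and 2 lower with shRNA 2. These calls make up 57.1% with each shRNA, near the share of all tested genes (57.3% with shRNA 1 and 50% with shRNA 2). ATG16L2, a paralog of ATG16L1 whose part in autophagy is less clear, had 218, 269.9, 266 and 291 CPM in shRNA 1 libraries, 107, 128, 120.3 and 101 in shRNA 2 libraries and 113, 110.4, 86.2 and 107 in control libraries. All shRNA 1 libraries exceeded 200 CPM, while those of shRNA 2 and the control overlapped. The change was 1.33 ± 0.10 on the log2 scale (SE, adjusted p = 3.06e-10) with shRNA 1, and 0.13 on the log2 scale with shRNA 2 (adjusted p = 0.272). FCHSD2, which shares exon bases with it on the other strand, fell with shRNA 1 (log2 -1.02) and rose with shRNA 2 (log2 0.51). ATG16L1, which places the conjugation enzyme on the membrane, had 20.6, 18.2, 15.5 and 18.7 CPM in shRNA 1 libraries, 17.6, 21, 20 and 18.1 in shRNA 2 libraries and 10.8, 11.5, 15.1 and 15.4 in control libraries. It rose with both shRNAs without overlap with the control (log2 fold change 0.46 ± 0.13 SE, adjusted p = 0.00487 for shRNA 1, log2 fold change 0.53 ± 0.13 SE, adjusted p = 0.0018 for shRNA 2). ATG5, the partner of ATG12 in that enzyme, averaged 24.6 ± 2.29 CPM with shRNA 1, 23.2 ± 2.48 with shRNA 2 and 18.8 ± 2.5 in the control (SD, n = 4 each). It rose with shRNA 1 (log2 fold change 0.38 ± 0.12 SE, adjusted p = 0.00765) and with shRNA 2 (log2 fold change 0.30 ± 0.12 SE, adjusted p = 0.0352). Its shRNA 2 call was lost without control replicate 1 (adjusted p = 0.143) or shRNA 2 replicate 1 (0.122), 2 (0.071) or 4 (0.0665).

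ATG7, the activating enzyme that starts both conjugation reactions, had 22.1, 26.7, 23.6 and 21.1 CPM in shRNA 1 libraries, 11.7, 10.9, 10.6 and 14.2 in shRNA 2 libraries and 19.2, 22.4, 23.7 and 22.3 in control libraries. The shRNA 2 libraries were all below every other library (log2 fold change -0.89 ± 0.12 SE, adjusted p = 1.9e-06), and the shRNA 1 libraries overlapped the control, with a log2 change of 0.10 (adjusted p = 0.498). VGLL4, which overlaps ATG7 on the other strand, rose with shRNA 2 (log2 0.99) and fell with shRNA 1 (log2 -0.65). ATG3, the enzyme that hands ATG8 proteins to lipid, had 38.5, 42.7, 37.6 and 36.5 CPM in shRNA 1 libraries, 54, 54.6, 55.2 and 53.5 in shRNA 2 libraries and 57.8, 57.5, 70.8 and 55.2 in control libraries. The shRNA 1 libraries lay below all others (log2 fold change -0.63 ± 0.08 SE, adjusted p = 7.9e-07) and the shRNA 2 libraries between them and the control. With shRNA 2 the log2 change was -0.15 (adjusted p = 0.136). ATG10, which joins ATG12 to ATG5, averaged 11.7 ± 1.59 CPM with shRNA 1, 7.7 ± 0.703 with shRNA 2 and 10.8 ± 1.56 in the control (SD, n = 4 each). It fell with shRNA 2 (log2 fold change -0.49 ± 0.15 SE, adjusted p = 0.00952). RPS23, a ribosomal protein gene overlapping ATG10 on the other strand, rose with shRNA 2 (log2 0.95). ATG12, the ubiquitin-like protein itself, averaged 31.5 ± 3.04 CPM with shRNA 1, 31.5 ± 2.57 with shRNA 2 and 33.9 ± 3.17 in the control (SD, n = 4 each) and was called with neither shRNA (log2 -0.11 with each). Further members that share exon bases with a called gene on the other strand are ATG13 (with HARBI1), BECN1 (PSME3), ATG2B (GSKIP), ATG3 (SLC35A5), ATG4B (THAP4), ATG4D (KRI1) and ATG12 (AP3S1), and ATG9A overlaps an annotated gene on its own strand.

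ATG4 proteases trim ATG8 proteins before conjugation and release them from lipid afterwards. All 4 rose with shRNA 1, and with shRNA 2 ATG4A and ATG4B rose while ATG4C and ATG4D fell. So 100% were called with each shRNA, beside 57.3% of all tested genes with shRNA 1 and 50% with shRNA 2. ATG4A, which prefers the GABARAP group, had 13.3, 6.12, 7.35 and 10.5 CPM in shRNA 1 libraries, 10.5, 12.4, 13 and 10.8 in shRNA 2 libraries and 5.61, 5.38, 6.56 and 5.38 in control libraries. Its shRNA 2 libraries lay above all control libraries (log2 fold change 1.02 ± 0.20 SE, adjusted p = 0.000157), and among the shRNA 1 libraries replicate 2 lay within the control range (log2 fold change 0.69 ± 0.20 SE, adjusted p = 0.00525). ATG4B, the family member with the broadest activity on ATG8 proteins, had 40.3, 47.5, 47.2 and 52.1 CPM in shRNA 1 libraries, 52.8, 56.7, 56.1 and 52.5 in shRNA 2 libraries and 38.5, 41.6, 36.4 and 34.7 in control libraries. It rose with shRNA 1 (log2 fold change 0.31 ± 0.09 SE, adjusted p = 0.00392), where 1 library lay within the control range, and with shRNA 2 (log2 fold change 0.53 ± 0.09 SE, adjusted p = 1.89e-05), where none did. ATG4C, which needs cleavage by a caspase to become active, had 24.3, 22.9, 19.1 and 16.4 CPM in shRNA 1 libraries, 9.17, 7.93, 10.5 and 10.9 in shRNA 2 libraries and 11.9, 13.3, 10.8 and 14.7 in control libraries. It rose with shRNA 1 (log2 fold change 0.71 ± 0.14 SE, adjusted p = 0.000212) without overlap, and fell with shRNA 2 (log2 fold change -0.40 ± 0.15 SE, adjusted p = 0.0308) with shRNA 2 replicate 4 just above the lowest control library. The shRNA 2 call was lost without control replicate 2 (adjusted p = 0.071) or 4 (0.122), or shRNA 2 replicate 1 (0.0753) or 2 (0.117). ATG4D, activated in the same way, had 24.6, 28.3, 27.2 and 29.3 CPM in shRNA 1 libraries, 13.9, 16.3, 19.2 and 13.8 in shRNA 2 libraries and 22.5, 19.1, 22.8 and 18.2 in control libraries. It rose with shRNA 1 (log2 fold change 0.41 ± 0.12 SE, adjusted p = 0.00548) without overlap and fell with shRNA 2 (log2 fold change -0.38 ± 0.12 SE, adjusted p = 0.0116), where replicate 3 lay within the control range. Under scaling by library size alone the shRNA 2 calls of ATG4C and ATG4D were lost (adjusted p = 0.0798 and 0.0512).

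Of the ATG8 proteins, the small ubiquitin-like proteins that coat the autophagosome, 4 of 5 were tested. MAP1LC3B (LC3B), the usual marker of autophagosomes, had 36.2, 39.98, 38.6 and 45.8 CPM in shRNA 1 libraries, 17.7, 15.4, 18.5 and 17.3 in shRNA 2 libraries and 32.6, 28.3, 37.2 and 36.1 in control libraries. The shRNA 2 libraries were clearly the lowest (log2 fold change -0.96 ± 0.11 SE, adjusted p = 8.09e-08). The shRNA 1 libraries overlapped the control, and the increase (log2 fold change 0.25 ± 0.10 SE, adjusted p = 0.0376) lost its call without control replicate 1 (adjusted p = 0.0817), control replicate 2 (0.145), shRNA 1 replicate 2 (0.0552) or shRNA 1 replicate 4 (0.142), and with no filter on low counts (0.0619). FBXO31, which overlaps MAP1LC3B on the other strand, was called with neither shRNA (log2 -0.07 and 0.08). GABARAPL1, a close relative of GABARAP, had 2.23, 5.94, 8.52 and 6.31 CPM in shRNA 1 libraries, 5.72, 6.23, 4.99 and 6.16 in shRNA 2 libraries and 1.94, 2.05, 2.56 and 2.97 in control libraries. With shRNA 1, replicate 1 lay inside the control range and the other 3 libraries above it (log2 fold change 1.25 ± 0.29 SE, adjusted p = 0.000873), and all shRNA 2 libraries lay above it (log2 fold change 1.26 ± 0.29 SE, adjusted p = 0.00103). GABARAPL2, the ATG8 protein also known as GATE-16, had 20.4, 28.2, 31.1 and 35.7 CPM in shRNA 1 libraries, 24.6, 25.4, 29.5 and 22.1 in shRNA 2 libraries and 22, 24.4, 24.5 and 25 in control libraries. It was called with neither shRNA (log2 fold change 0.26 ± 0.13 SE, adjusted p = 0.0935 for shRNA 1, log2 fold change 0.08 ± 0.13 SE, adjusted p = 0.631 for shRNA 2). Without shRNA 1 replicate 1, the lowest of its group, the log2 change was 0.39 with an adjusted p of 0.00342.

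GABARAP itself was sparse, with 0, 16, 18 and 30 counts in shRNA 1 libraries, 25, 10, 17 and 26 in shRNA 2 libraries and 22, 5, 15 and 10 in control libraries. All groups overlapped, the SE of its log2 changes was 0.68 with shRNA 1 and 0.66 with shRNA 2, and it shares exon bases with another annotated gene on its own strand. No difference was detected at these counts. MAP1LC3A (LC3A) did not pass the filter, with 12, 10, 10 and 13 counts in shRNA 1 libraries, 3, 2, 2 and 4 in shRNA 2 libraries and 4, 4, 4 and 1 in control libraries. Its counts were highest in the shRNA 1 libraries, with no overlap, and no test was made.

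The cargo receptors bind ubiquitin or other tags on cargo and ATG8 proteins on the membrane. All 5 rose with shRNA 1, with a median log2 change of 1.05. With shRNA 2, 1 rose and 1 fell, with a median of 0.17. Called were 100% with shRNA 1 and 40% with shRNA 2, beside 57.3% and 50% of all tested genes. Their summed level was 732 ± 47.2 CPM with shRNA 1, 341 ± 14.8 CPM with shRNA 2 and 333 ± 11.3 CPM in the control (SD, n = 4 each). Where they lie, on GRCh38, is chr5:179806398-179838078 for SQSTM1, chr17:43170481-43211689 for NBR1, chr10:13099449-13138308 for OPTN, chr17:48830988-48866522 for CALCOCO2 and chr7:27739331-27844564 for TAX1BP1.

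The promoters of 4 of them are shown because these genes rose together with shRNA 1. Any part of the marked letters in that rise was not tested. Each is a stretch of up to 150 bases before the RefSeq start that no GENCODE exon covers, on the plus strand of GRCh38.p14. NBR1 had no such stretch. Capitals mark GC boxes on either strand (GGGCGG or CCGCCC) and, in CALCOCO2, a match to the antioxidant response element TGACNNNGC read on the other strand (GCCCGGTCA). SQSTM1 is chr5:179806335-179806392 with 2 GC boxes, OPTN is chr10:13099959-13100081 with 4, CALCOCO2 is chr17:48830838-48830987 with 2, and TAX1BP1 is chr7:27739181-27739330 with no match to any motif searched and 28% G or C. The SQSTM1, OPTN and CALCOCO2 stretches had 84.5%, 71.5% and 62.7% G or C. The OPTN stretch lies inside the annotated span of the gene, downstream of its GENCODE start at 13099449. For OPTN and CALCOCO2, the 30 bases checked after the RefSeq start were found in no GENCODE transcript of the gene.
SQSTM1: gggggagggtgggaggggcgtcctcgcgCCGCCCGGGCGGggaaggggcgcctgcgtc
OPTN: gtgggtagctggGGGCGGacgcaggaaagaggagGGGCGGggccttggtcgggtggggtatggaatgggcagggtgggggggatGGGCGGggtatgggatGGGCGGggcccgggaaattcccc
CALCOCO2: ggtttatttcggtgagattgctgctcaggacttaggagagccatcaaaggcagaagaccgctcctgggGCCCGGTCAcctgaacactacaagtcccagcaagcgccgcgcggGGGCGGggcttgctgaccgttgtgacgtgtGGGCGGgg
TAX1BP1: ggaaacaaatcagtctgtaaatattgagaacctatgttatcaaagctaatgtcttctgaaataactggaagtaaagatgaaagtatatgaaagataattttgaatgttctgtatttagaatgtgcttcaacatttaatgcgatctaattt

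SQSTM1 (p62), the receptor that condenses ubiquitinated proteins, had 175, 234, 229 and 231 CPM in shRNA 1 libraries, 79.1, 84.9, 98.8 and 84.6 in shRNA 2 libraries and 79.3, 75.3, 76.5 and 75.4 in control libraries. All shRNA 1 libraries were at least 175 CPM, and those of shRNA 2 and the control overlapped below 100 CPM. The change was 1.5 ± 0.09 on the log2 scale (SE, adjusted p = 8.02e-13) with shRNA 1, the largest of any member. With shRNA 2 it was 0.18 ± 0.09 on the log2 scale (SE, adjusted p = 0.0834). The gene was called higher there without shRNA 1 replicate 1 (adjusted p = 0.0207) or shRNA 2 replicate 1 (0.0491), with no filter on low counts (0.0374) and in a fit of the shRNA 2 and control libraries alone (0.0167). SQSTM1 shares exon bases with MGAT4B and MRNIP on the other strand, whose log2 changes were 1.53 and 1.26 with shRNA 1 and 1.04 and -0.02 with shRNA 2. The counting does not state a strand setting, so reads in the shared bases cannot be told apart.

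NBR1, a receptor that acts beside p62, had 131, 136, 121 and 114 CPM in shRNA 1 libraries, 47.3, 40.3, 49.6 and 53.6 in shRNA 2 libraries and 44.6, 52.4, 58.6 and 59.8 in control libraries. The shRNA 1 libraries stood above all others (log2 fold change 1.22 ± 0.09 SE, adjusted p = 1.8e-10), and shRNA 2 overlapped the control (log2 fold change -0.18 ± 0.10 SE, adjusted p = 0.126). Without control replicate 1, NBR1 was called lower with shRNA 2 (log2 -0.26, adjusted p = 0.028). TAX1BP1, a ubiquitin-binding receptor also known for limiting NF-kB signalling, had 164, 154, 127 and 116 CPM in shRNA 1 libraries, 89.7, 74.2, 79.2 and 78.7 in shRNA 2 libraries and 69.6, 68.6, 73.4 and 73.9 in control libraries. The shRNA 1 libraries again stood highest (log2 fold change 0.97 ± 0.09 SE, adjusted p = 4.3e-09). The shRNA 2 libraries lay just above the control libraries, and the difference did not pass the threshold (log2 fold change 0.17 ± 0.09 SE, adjusted p = 0.121). In a fit of the shRNA 2 and control libraries alone it did (adjusted p = 0.0203). JAZF1, which overlaps TAX1BP1 on the other strand, averaged 0.551 CPM with shRNA 1, 0.721 CPM with shRNA 2 and 1.33 CPM in the control, and was called lower with shRNA 1 (log2 -1.26) and not with shRNA 2 (log2 -0.87).

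CALCOCO2 (NDP52), a receptor for bacteria and damaged mitochondria, had 239.8, 251, 214 and 202 CPM in shRNA 1 libraries, 96.6, 92.7, 93.8 and 102 in shRNA 2 libraries and 119.7, 120.1, 115 and 129 in control libraries. The groups did not overlap, with shRNA 1 highest (log2 fold change 0.91 ± 0.07 SE, adjusted p = 1.69e-10) and shRNA 2 lowest (log2 fold change -0.33 ± 0.07 SE, adjusted p = 0.000463). OPTN (optineurin), a receptor for damaged mitochondria and bacteria, had 18.9, 22.5, 25.8 and 21.2 CPM in shRNA 1 libraries, 30.3, 27.1, 30.6 and 29.8 in shRNA 2 libraries and 10.9, 9.82, 11.2 and 10.7 in control libraries. Here both shRNAs lay above the control and shRNA 2 lay above shRNA 1, with changes of 1.05 ± 0.11 on the log2 scale (SE, adjusted p = 3.62e-08) for shRNA 1 and 1.46 ± 0.11 on the log2 scale (SE, adjusted p = 2.58e-10) for shRNA 2. CCDC3, the named gene that overlaps OPTN on the other strand, averaged at most 0.0658 CPM in any group.

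**Figure D2:**
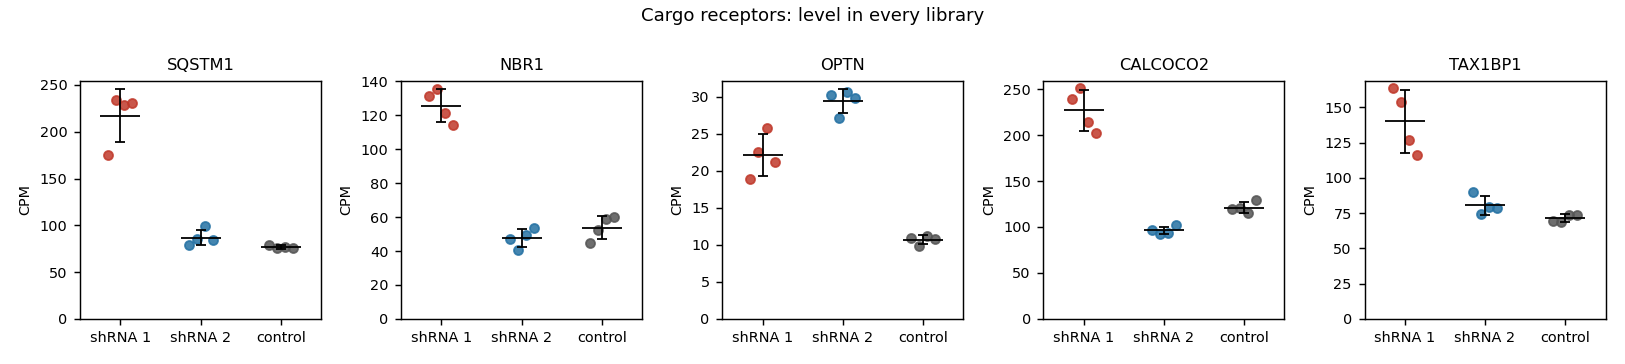
Level of the 5 cargo receptors in CPM (linear axis from 0), 1 point per library, with the group mean and SD as bars (n = 4 each), from left to right shRNA 1, shRNA 2 and control. SQSTM1, NBR1, CALCOCO2 and TAX1BP1 are highest with shRNA 1, and OPTN is highest with shRNA 2 at 29.4 CPM.

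Set directly against each other, 7 of the 35 members were higher and 13 lower with shRNA 2 than with shRNA 1, where 58.7% of all tested genes were called, 29.3% higher and 29.4% lower. At a change of at least 1.5-fold, 1 was higher and 11 lower, beside 17.1% and 18.3% of all tested genes. Scaling by library size alone gave 5 higher and 14 lower, beside 24.2% and 35.5% of all tested genes. The median log2 difference was -0.06 for the members and -0.02 over all genes tested. Among the cargo receptors, 4 of 5 were lower with shRNA 2 than with shRNA 1, with log2 differences of -1.40 for NBR1, -1.32 for SQSTM1, -1.24 for CALCOCO2 and -0.80 for TAX1BP1, and OPTN was higher by 0.41 (adjusted p = 0.00182). Outside the receptors, MAP1LC3B, RB1CC1 and ATG16L2 were lower with shRNA 2, with log2 differences of -1.22, -1.22 and -1.20, and AMBRA1 was higher by 1.04. ATG4C, ATG7 and ATG4D were also lower, with log2 differences of -1.11, -0.99 and -0.79. WIPI1, GABARAPL1, ATG16L1, ATG101 and ATG2B, all higher than the control with each shRNA, were not called between the shRNAs, with log2 differences of -0.16, 0.01, 0.07, 0.18 and -0.06. For ATG4A the difference was 0.33 (adjusted p = 0.135), and 0.56 without shRNA 1 replicate 1 (adjusted p = 0.00845). FIP1L1 mRNA was itself higher with shRNA 2 than with shRNA 1 (log2 fold change 0.35 ± 0.10 SE, adjusted p = 0.00415).

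Among the 35 tested members, 6 were called in opposite directions with the shRNAs. The share of all tested genes called in this way was not counted, so the 6 are not read as many or few. Of all tested genes, 57.3% were called with shRNA 1 and 50% with shRNA 2. Each of the 6 included a change under 1.5-fold. These were RB1CC1 (1.28-fold), MAP1LC3B (1.19-fold) and ATG4D (1.33-fold) with shRNA 1. With shRNA 2 they were AMBRA1 (1.17-fold), CALCOCO2 (79.5% of the control), ATG4C (75.9%) and ATG4D (76.7%). RB1CC1, ATG4C, ATG4D, MAP1LC3B and CALCOCO2 rose with shRNA 1 and fell with shRNA 2, and AMBRA1 fell with shRNA 1 and rose with shRNA 2. The difference between the shRNAs was called for each of the 6, with adjusted p from 5.3e-06 for ATG4D to 8.11e-13 for CALCOCO2. For RB1CC1, AMBRA1 and CALCOCO2 neither shRNA overlapped the control, and both calls held in every alternative fit and with any single library left out.

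**Figure D3:**
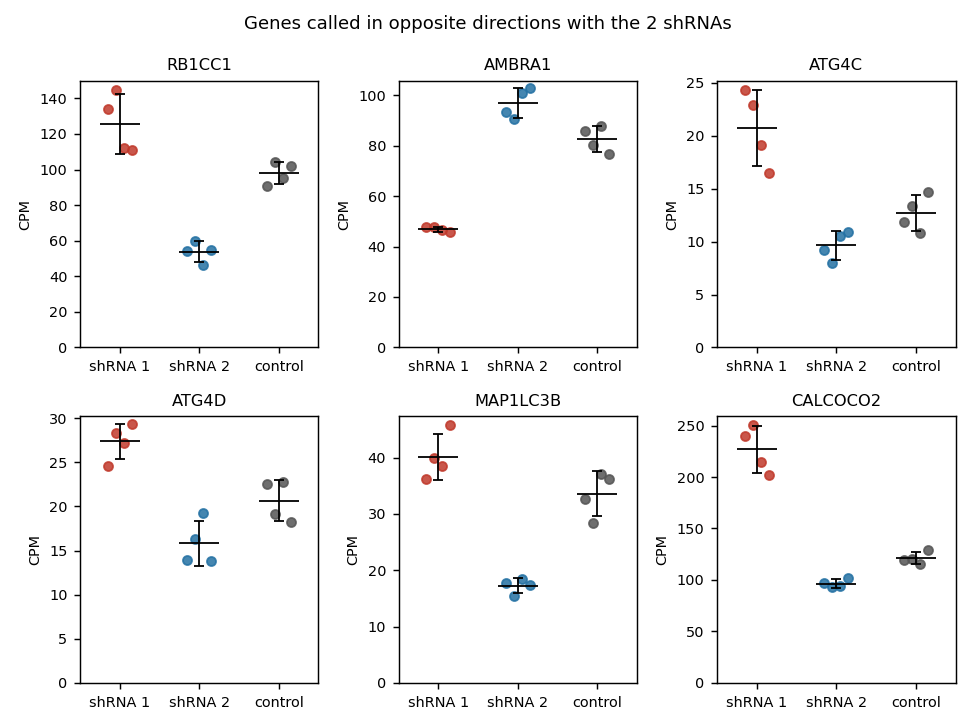
Level of the 6 genes called in opposite directions, in CPM (linear axis from 0), 1 point per library, with the group mean and SD as bars (n = 4 each), from left to right shRNA 1, shRNA 2 and control. In AMBRA1 the shRNA 1 libraries lie lowest, at 45.6 to 47.8 CPM, and in the other 5 genes the shRNA 2 mean is the lowest.

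Per length, the levels spanned a wide range within the pathway. In the control, ATG13 stood highest at 16.0 ± 0.801 CPM per kb of exon, followed by WIPI2 at 15.4 ± 0.495, ATG2A at 15.4 ± 1.96 and CALCOCO2 at 14.5 ± 0.707 (SD, n = 4 each). At the low end were WIPI1 at 1.07 ± 0.386, GABARAPL1 at 0.583 ± 0.117, GABARAP at 0.405 ± 0.243 and MAP1LC3A at 0.138 ± 0.0724 CPM per kb, with ULK2 listed at 0, with the same limit on its annotation. LC3B was the more abundant LC3 mRNA (6.32 ± 0.75 CPM per kb), and GABARAPL2 (7.9 ± 0.435) stood above GABARAPL1. The GABARAP value carries a limit on annotation too, and this gene shares exon bases with another on its own strand. Its value is therefore not set against theirs as a level of its mRNA. With shRNA 1, ATG16L2 (30.3), SQSTM1 (28.4) and CALCOCO2 (27.2 CPM per kb) stood above all other members. Of 36 neighbouring pairs in the control order, 30 had overlapping library ranges, so much of the order is within the spread, and 27 members changed rank when the longest transcript was used as the length. By that length CALCOCO2 stood highest in the control (32.9 CPM per kb), ahead of WIPI2 (30.9) and ATG13 (25.7).

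**Figure D4:**
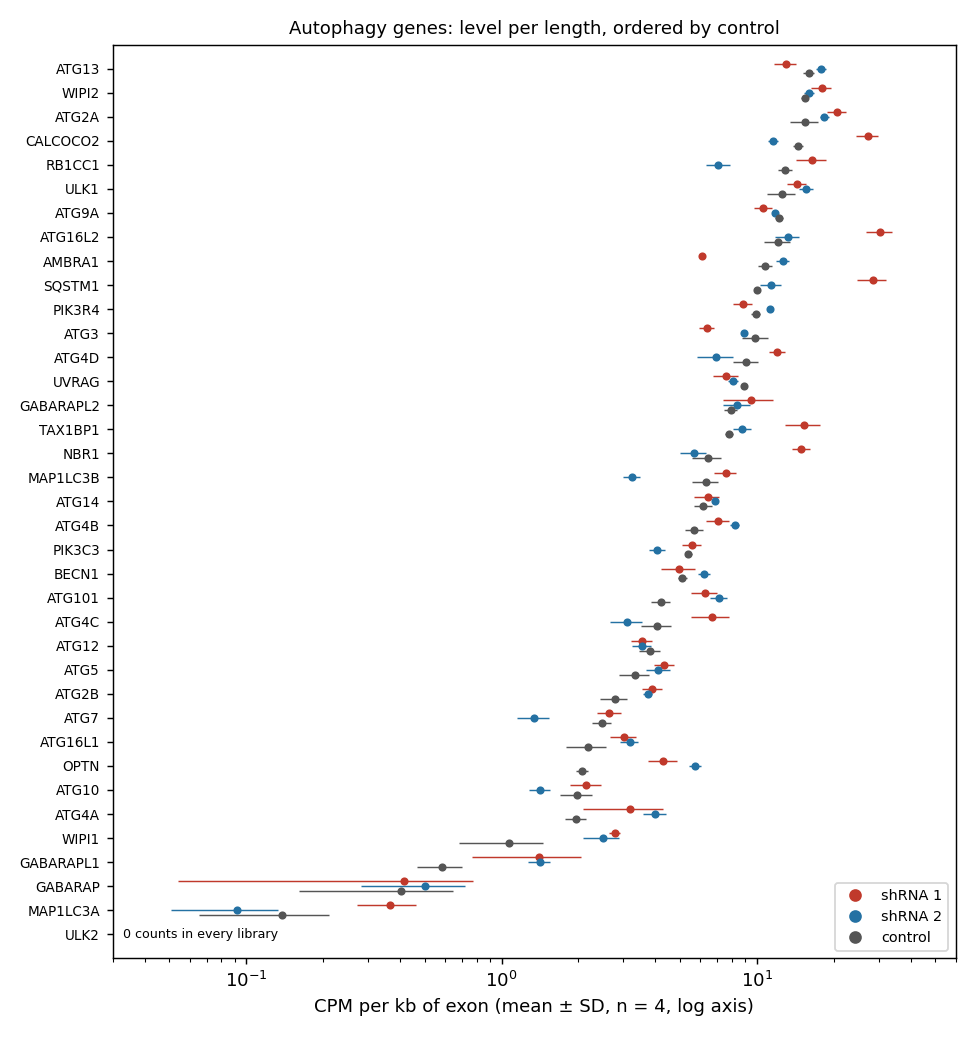
Level of each autophagy gene in CPM per kb of exon on a log axis, as mean ± SD (n = 4 each) for shRNA 1 (red), shRNA 2 (blue) and control (grey), ordered from the highest control level at the top. With shRNA 1, ATG16L2, SQSTM1 and CALCOCO2 reach 27.2 to 30.3 CPM per kb, and ULK2, with 0 counts in every library, has no point.

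The RefSeq table of promoters held 33 of the 37 genes, and the 250 bases before each start were searched on both strands. Only 1 start per gene was used, and for some genes, such as ATG5 and AMBRA1, it lies inside the GENCODE span. For 26 of the 33, the 30 bases checked after the start lay in a GENCODE transcript of the gene. The GC box GGGCGG was present in 22 of 33 (66.7%), beside 42.3% of all 27305 promoters of the same length. The CCAAT box (CCAAT) was present in 33.3%, beside 33% of all. The E-box CACGTG, the core of the letters that TFEB and its relatives bind, was found in ATG14 and ATG3 (6.06%, beside 6.49% of all), and its extended form TCACGTGA, which contains it, in none (0.89% of all). TGACGTCA, the cyclic AMP response element, was found in GABARAPL1 only (3.03%, beside 1.77%). TGACTCA, the AP-1 site, was found in none (4.16% of all), and TGACNNNGC, which can overlap it, in ATG101, MAP1LC3B and CALCOCO2 (9.09%, beside 11%). No test was made of these shares.

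Other genes of the pathway were counted from 7 lists of 82 genes, of which 77 were tested. With shRNA 1, 30 were higher and 20 lower, and with shRNA 2, 31 were higher and 19 lower, with median log2 changes of 0.06 and 0.11. With shRNA 1 that is 39.0% higher and 26.0% lower, beside 28.6% and 28.7% of all tested genes. With shRNA 2 it is 40.3% and 24.7%, beside 24.7% and 25.3% of all tested genes. The same shares over all genes stand beside the counts of each list below. Among partners of initiation, such as the AMPK and mTORC1 subunits and the C9orf72 complex, 2 of 8 were higher and 4 lower with shRNA 1, and 2 higher and 2 lower with shRNA 2. RPTOR, the mTORC1 subunit that recruits substrates, fell with shRNA 1 (log2 fold change -0.99 ± 0.07 SE, adjusted p = 2.73e-11), and WDR41, a partner of C9orf72, fell with shRNA 2 (log2 fold change -0.46 ± 0.10 SE, adjusted p = 0.000395). WDR41 was also called lower with shRNA 1 (log2 -0.53), and RPTOR was not called with shRNA 2 (log2 0.09). Among 10 partners of the lipid kinase complex, 5 were higher and 3 lower with each shRNA, and TP53INP1, a stress-induced protein that binds ATG8 proteins, averaged 15.2 ± 2.26 CPM with shRNA 1, 11.9 ± 0.946 with shRNA 2 and 4.88 ± 1.52 in the control (SD, n = 4 each). It rose with both (log2 fold change 1.64 ± 0.19 SE, adjusted p = 1.02e-07 with shRNA 1, log2 fold change 1.28 ± 0.19 SE, adjusted p = 5.89e-06 with shRNA 2). Among 9 genes of membrane supply, 5 were higher and 2 lower with shRNA 1, led by TRAPPC11, a subunit of a vesicle tethering complex (log2 fold change 1.09 ± 0.08 SE, adjusted p = 1.74e-10), and 4 higher and 2 lower with shRNA 2, led by ZFYVE1, which marks the membrane domains where autophagosomes form (log2 fold change 0.93 ± 0.10 SE, adjusted p = 3.43e-08). ZFYVE1 was also called higher with shRNA 1 (log2 0.83), and TRAPPC11 was not called with shRNA 2 (log2 0.10).

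The counts that follow stand beside 57.3% of all tested genes called with shRNA 1 and 50% with shRNA 2. Of 3 tested genes among further ATG8 and conjugation genes, 1 was higher and 1 lower with shRNA 1, and 2 were higher with shRNA 2. TECPR1, which binds ATG5 on lysosomal membranes, rose with both shRNAs (log2 fold change 0.97 ± 0.08 SE, adjusted p = 3.66e-10 with shRNA 1, log2 fold change 0.68 ± 0.08 SE, adjusted p = 2.08e-07 with shRNA 2). The 15 genes of autophagosome-lysosome fusion had 7 higher and 2 lower with each shRNA. SNAP29, a SNARE of that fusion, was the most changed with shRNA 1 (log2 fold change 0.88 ± 0.10 SE, adjusted p = 4.85e-08), and PLEKHM1, an adaptor of RAB7, the most changed with shRNA 2 (log2 fold change 0.67 ± 0.07 SE, adjusted p = 2.46e-08). SNAP29 was also called higher with shRNA 2 (log2 0.36), and PLEKHM1 with shRNA 1 (log2 0.81). Of 20 tested further receptors and mitophagy genes, 6 were higher and 7 lower with shRNA 1, and 7 higher and 8 lower with shRNA 2. CCPG1, a receptor of endoplasmic reticulum, rose most with shRNA 1 (log2 fold change 1.91 ± 0.20 SE, adjusted p = 1.67e-08), and NIPSNAP1, a mitochondrial protein that recruits receptors, fell most with shRNA 2 (log2 fold change -1.24 ± 0.09 SE, adjusted p = 5.48e-11). CCPG1 was also called higher with shRNA 2 (log2 0.91), and NIPSNAP1 lower with shRNA 1 (log2 -0.98). Of 12 transcription factors, 4 were higher and 1 lower with shRNA 1, and 4 higher and 2 lower with shRNA 2. DDIT3, the stress factor CHOP, averaged 16.4 ± 4.25 CPM with shRNA 1, 6.98 ± 1.24 with shRNA 2 and 5.44 ± 1.62 in the control (SD, n = 4 each) and rose with shRNA 1 (log2 fold change 1.59 ± 0.22 SE, adjusted p = 1.64e-06). SREBF2, the regulator of sterol synthesis, fell with shRNA 2 (log2 fold change -0.88 ± 0.06 SE, adjusted p = 6.85e-11). SREBF2 was also called lower with shRNA 1 (log2 -0.37), and DDIT3 was not called with shRNA 2 (log2 0.37).

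**Figure D5:**
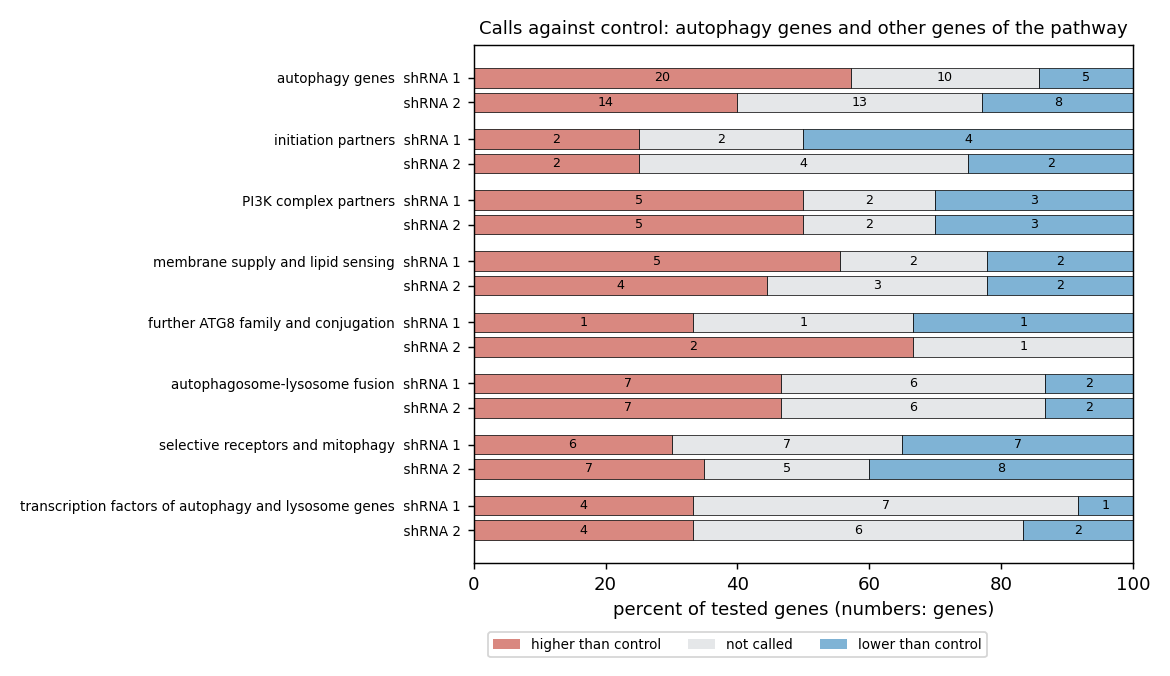
Share of tested genes higher than the control (red), not called (grey) and lower (blue) at an adjusted p below 0.05, with the number of genes printed in each bar, for the 35 autophagy genes and the 7 lists of other genes, shRNA 1 above shRNA 2. The autophagy genes have 20 higher and 5 lower with shRNA 1, and 14 higher and 8 lower with shRNA 2. Of all tested genes, 28.6% were higher and 28.7% lower with shRNA 1, and 24.7% and 25.3% with shRNA 2.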

How the data were processed

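RNA-seq of 12 Kasumi-1 libraries was analysed. The authors deposited raw read counts, as whole numbers, with 1 row per Ensembl gene ID. The tools STAR 2.7.3a, cutadapt 2.6 and DESeq2 and the build hg19 are listed, per the submitters' processing notes, with no role stated. What counted the reads, on which annotation and with which strand setting, is not given in the sources used. Poly(A) site counts of 10 further libraries (3'READS) were not used here, since their table names no genes and an annotation of its build was not at hand.

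Symbols, gene positions and exon lengths came from GENCODE 29 (GRCh38), and promoters from RefSeq (GRCh38.p14). Counts were fitted with edgeR 4.0.16 (R 4.3.3; TMM, filterByExpr with a minimum count of 10, quasi-likelihood F test, two-sided) with all 12 libraries in 1 fit and 9 residual degrees of freedom. P-values were adjusted over all 15834 tested genes by the Benjamini-Hochberg method at 0.05. The test returns no SE, so each SE is the absolute log2 fold change over the square root of its F value. The fit was tested on simulated data. Replicates always differed by more than sampling noise (chi-square over degrees of freedom 3.77 to 32.6). The shRNA 1 libraries differed most, from 4.12 (replicates 3 and 4) to 32.6 (replicates 1 and 4). Control pairs reached at most 7.9 and shRNA 2 pairs at most 6.86.

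The members and lists were chosen with earlier results of these data known. Every member is named. Values in every library are given for members called against the control with a log2 change of at least 0.5, for those called in opposite directions and for the ATG8 proteins. From each other list, the called gene with the largest change with each shRNA is named, given a mean of at least 1 CPM. Exons of 20 members overlap a gene on the other strand, 2 members overlap one on the same strand, and 6 have named pseudogenes, which held at most 0.0827 CPM. Alternatives were DESeq2 1.42.0, its size factors, library size alone, no filter, only the 2 groups compared, a replicate block, each library left out and a fold minimum of 1.5.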

Additional observations from a re-analysis of the deposited data

Results flagged for a closer look

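Of 105 groups of 4 libraries (35 tested genes in 3 groups), 6 held a library far from the other 3, judged by its gap to the nearest over the range of the group (Dixon's ratio, at its 95% limit), and chance flags about 1 in 20 such groups. SQSTM1 was low in shRNA 1 replicate 1 (175 CPM, others 229 to 234, ratio 0.906). ATG2A was high in shRNA 1 replicate 1 (184 CPM, others 153 to 156, ratio 0.929). ULK1 was high in shRNA 2 replicate 2 (130.4 CPM, others 114 to 116, ratio 0.886). WIPI1 was low in control replicate 4 (1.68 CPM, others 4.1 to 4.48, ratio 0.862), ATG12 was high in control replicate 4 (38.6 CPM, others 32.0 to 32.6, ratio 0.911) and ATG3 was high in control replicate 3 (70.8 CPM, others 55.2 to 57.8, ratio 0.837).

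The effects of the shRNAs were called in opposite directions against the shared control, and differed from each other in edgeR's direct comparison, for 6 of the 35 tested genes. The share over all genes was not counted, so this number is not read as many or few. The log2 difference of shRNA 2 against shRNA 1 was -1.24 for CALCOCO2, -1.22 for RB1CC1, -1.22 for MAP1LC3B, -1.11 for ATG4C and -0.79 for ATG4D, and it was 1.04 for AMBRA1.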

How the results depend on the processing

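Of 1890 member values recomputed under the alternatives, 1812 kept their side of the threshold, 50 lost the call, 28 gained one and 0 reversed while called. The 1812 include values that changed sign without being called. The log2 change of BECN1 with shRNA 1, never called, ran from -0.12 to 0.15. A fold minimum of 1.5 left 10 of 20 higher and 2 of 5 lower calls with shRNA 1 (34.5% of all genes passed), 5 of 14 higher and 3 of 8 lower with shRNA 2 (26.8%), and 1 of 7 higher with shRNA 2 against shRNA 1 (17.1% of all genes higher). Library size alone left 2 lower with shRNA 1. It made 92.6% of the calls with shRNA 1 increases (80% under TMM), 75% with shRNA 2 (63.6%) and 26.3% with shRNA 2 against shRNA 1 (35%). Over all genes those shares were 66.1% (49.9%), 58.1% (49.4%) and 40.5% (49.9%), as the median of all genes moved to 0.21, 0.08 and -0.13. With each library left out, members lower with shRNA 1 numbered 3 to 6, the lowest without shRNA 1 replicate 3. Replicate numbers did not pair the libraries (same-number correlations -0.037 to 0.089, none over 0.1, and not every library matched its own number best). A replicate block moved the counts to 21 higher with shRNA 1 and 13 higher with shRNA 2, adding ULK1 (adjusted p = 0.0487) and dropping PIK3R4 (0.0592). The log2 difference of WIPI2 between the shRNAs was -0.16, and -0.10 without shRNA 1 replicate 2. GABARAP and MAP1LC3A had at most 30 and 13 counts in any library.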

Other observations

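Among the further receptors of the endoplasmic reticulum, CALCOCO1 rose while TEX264 and RETREG1 fell with shRNA 1, and these were picked out after their values were seen. Of the others on the same list, CCPG1 and CDK5RAP3 rose (log2 1.91 and 0.67), SEC62 fell by 0.36 on the log2 scale, and RTN3 and ATL3 were not called (log2 0.06 and -0.11, adjusted p from edgeR = 0.417 and 0.178). CALCOCO1 averaged 72.4 ± 9.47 CPM with shRNA 1, 26.9 ± 2.1 with shRNA 2 and 25.3 ± 3.04 in the control (SD, n = 4 each), and rose with shRNA 1 (log2 fold change 1.51 ± 0.10 SE, edgeR adjusted p = 2.08e-11). TEX264 averaged 23.4 ± 2.42 CPM with shRNA 1, 53.6 ± 4.58 with shRNA 2 and 64.6 ± 7.09 in the control (SD, n = 4 each), and fell with shRNA 1 (log2 fold change -1.47 ± 0.10 SE, edgeR adjusted p = 9.16e-12). RETREG1 averaged 5.87 ± 1.65 CPM with shRNA 1, 14.2 ± 2.77 with shRNA 2 and 15.1 ± 1.02 in the control (SD, n = 4 each), and fell with shRNA 1 (log2 fold change -1.36 ± 0.18 SE, edgeR adjusted p = 7.41e-07). With shRNA 2 the log2 changes of these genes were 0.08 (not called), -0.27 (called) and -0.09 (not called).

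Of the factors that drive lysosome and autophagy genes, TFE3 averaged 57.5 ± 9.81 CPM with shRNA 1, 64.1 ± 2.82 with shRNA 2 and 35.6 ± 1.83 in the control (SD, n = 4 each). It rose with both, by 0.69 ± 0.10 and 0.85 ± 0.10 in log2 (± SE; adjusted p from edgeR = 1.9e-06 and 1.29e-07). TFEB was called with neither shRNA, with log2 changes of 0.05 and 0.16 (adjusted p = 0.81 and 0.461). TFEC, on the same list, was called with neither (log2 0.28 and 0.61, edgeR adjusted p = 0.487 and 0.144). MITF, with at most 33 counts in any library, was called higher with shRNA 2 (log2 1.58, edgeR adjusted p = 0.0296). With shRNA 1 MITF was not called (log2 -0.07). TFE3 and TFEB were likewise chosen after their values were seen.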
